A study of Saccharomyces cerevisiae with 16 samples.

Results

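The 10 genes described here encode enzymes of the tricarboxylic acid cycle of Saccharomyces cerevisiae, and they were taken by systematic ID from the 7126 genes counted in each library. They are CIT1 (YNR001C), CIT2 (YCR005C), ACO1 (YLR304C), IDH1 (YNL037C), IDH2 (YOR136W), KGD1 (YIL125W), KGD2 (YDR148C), LSC1 (YOR142W), FUM1 (YPL262W) and MDH1 (YKL085W). All libraries come from spheroplasts, cells freed of their wall, of a trm10∆ strain, so every group, controls included, lacks TRM10, the gene of a tRNA methyltransferase. The spheroplasts were electroporated with no RNA, with rancRNA_18, a short ribosome-associated noncoding RNA, or with rancRNA_18-M2, whose relation to rancRNA_18 the labels do not describe. Once the cells had recovered, poly(A)-selected mRNA was sequenced either from unfractionated lysate (total) or from polysomes collected on a density gradient, the mRNA bound to ribosomes, and the series compares both across the electroporations. The electroporations with no RNA and with rancRNA_18-M2 have 3 libraries in each fraction, and rancRNA_18 has 2 total libraries. Its 2 polysomal files do not differ in any gene and were treated as 1 library, which leaves 15 libraries and no replicate in that group.

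The cycle oxidises acetyl groups to carbon dioxide in the mitochondrial matrix, feeds electrons into respiration and supplies precursors for amino acids. CIT2 is the exception among the 10: its product is the peroxisomal citrate synthase, which works in the glyoxylate cycle, while CIT1 encodes the mitochondrial enzyme. In yeast, CIT2 is the classic target of the retrograde pathway, in which the transcription factors Rtg1 and Rtg3 respond to the state of mitochondria. Several other cycle genes are known as targets of the same factors or of the HAP complex, a CCAAT-binding activator of respiratory genes.

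Gene reads per library numbered 16691019 to 31148081, with polysomal replicate 3 with no RNA the deepest and 21962246 the next. TRM10 (YOL093W) had 0 to 5 reads per library and 19 in all 15 libraries. Where nothing in the labels says that replicates came from separate cultures, p-values measure only the spread between these samples. The replicate numbers 1, 2 and 3 in the titles mark sets of libraries that deviate together across all genes, so fits are given without the number and, where a call changes, with the number as a block. Levels are CPM, the counts scaled to a common library size, relative within a library. From bulk RNA, fewer cells with a transcript and less of it per cell cannot be told apart, and the absolute amount of mRNA was not measured.

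Upstream sequence was read for all 10 genes from the RefSeq R64 assembly, from 250 bases before the coding start to 50 after it. The 3 windows below belong to the genes with the largest differences upward (CIT2 and IDH2) and downward (KGD2) between libraries with replicate number 3 and number 1. Capitals mark GTCAC, the core bound by Rtg1 and Rtg3, and CCAAT, the core bound by the HAP complex, on either strand, so that GTGAC and ATTGG are the same motifs read on the opposite strand.
CIT2, chrIII:122279-122578, minus strand: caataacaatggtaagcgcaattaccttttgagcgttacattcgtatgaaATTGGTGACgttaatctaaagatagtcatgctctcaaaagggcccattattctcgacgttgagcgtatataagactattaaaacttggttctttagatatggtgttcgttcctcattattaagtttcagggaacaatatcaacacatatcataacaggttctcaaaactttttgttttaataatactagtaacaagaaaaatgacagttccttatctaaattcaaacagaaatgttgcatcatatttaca
IDH2, chrXV:580000-580299, plus strand: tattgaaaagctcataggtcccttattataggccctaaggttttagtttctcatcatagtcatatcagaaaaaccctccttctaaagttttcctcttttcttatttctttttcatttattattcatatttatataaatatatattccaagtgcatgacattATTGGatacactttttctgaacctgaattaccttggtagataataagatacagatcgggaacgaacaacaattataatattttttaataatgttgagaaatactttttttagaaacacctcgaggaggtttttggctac
KGD2, chrIV:755017-755316, minus strand: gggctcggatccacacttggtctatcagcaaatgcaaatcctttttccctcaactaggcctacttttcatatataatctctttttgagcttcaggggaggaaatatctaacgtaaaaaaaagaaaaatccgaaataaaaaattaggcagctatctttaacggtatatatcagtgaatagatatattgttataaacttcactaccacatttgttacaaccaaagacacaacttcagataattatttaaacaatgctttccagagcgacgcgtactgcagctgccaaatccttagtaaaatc
In the CIT2 window the motifs share a base in 1 run of capitals, at 200 and 196 bases before the start. The IDH2 window held CCAAT at 89 bases before the start, and the KGD2 window held neither motif.

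GTCAC was present in the windows of 4 of the 10 genes (CIT2, KGD1, LSC1 and FUM1), against 26.4% of 6006 such windows in the genome. CCAAT was present in 6 of 10 (CIT2, ACO1, IDH1, IDH2, FUM1 and MDH1), against 43.2% of windows. The LSC1 match to GTCAC and the FUM1 match to CCAAT lie after the coding start. In the 500 bases before the start, a window chosen after seeing the data, 6 of 10 genes held GTCAC and 9 of 10 CCAAT, where 42.3% and 62.4% of 6005 windows did. KGD2 was among the 9, with CCAAT at 364 and 332 bases before the start. These matches are descriptions of letters and not of bound sites.

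All 10 genes had 1325 to 22325 reads in every library and passed the filter on low counts. Each has 1 coding exon, and none overlaps another annotated gene. CIT1 and CIT2 are related in sequence, and whether the counting split reads between them was not measured. On the scale of CPM per kilobase of coding sequence, levels in total mRNA with no RNA ran from 475 ± 105 for MDH1 (SD, n = 3), the mitochondrial malate dehydrogenase, to 40.5 ± 7.21 for KGD1 (SD, n = 3), the dehydrogenase component of the alpha-ketoglutarate dehydrogenase complex. After MDH1 came IDH2 at 441 ± 155 and CIT1 at 436 ± 80.0 CPM per kilobase (SD, n = 3 each). IDH1, the other subunit of the NAD-dependent isocitrate dehydrogenase, stood at 316 ± 92.7, with no overlap to LSC1, the alpha subunit of succinyl-CoA ligase, at 202 ± 28.4 (SD, n = 3 each). KGD2, the succinyltransferase component of the alpha-ketoglutarate dehydrogenase complex, followed at 176 ± 29.2, CIT2 at 175 ± 120.2, FUM1, fumarase, at 152 ± 46.1 and the aconitase ACO1 at 149 ± 36.1 CPM per kilobase (SD, n = 3 each). The place of CIT2 rests on total library 3, at 313 CPM per kilobase beside 116 and 95.7 in libraries 1 and 2. Without library 3, an alternative chosen after seeing the data, the mean of CIT2 was 106 and lay below those of FUM1 at 128 and ACO1 at 135 (n = 2 each). Neighbours in the order over 3 libraries overlapped in range, apart from IDH1 and LSC1 and from ACO1 and KGD1. ACO1 exceeded KGD1 in 15 of 15 libraries and CIT1 exceeded IDH1 in 15 of 15, whereas CIT2 exceeded FUM1 in 5 of 15.

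Over the 15 libraries CIT2 had the widest range of the 10 genes, with its highest level 5.15 times its lowest. LSC1 had the narrowest, at 1.52 times. The other 8 genes spanned 1.82 times (CIT1) to 2.46 times (IDH1).

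**Figure D1:**
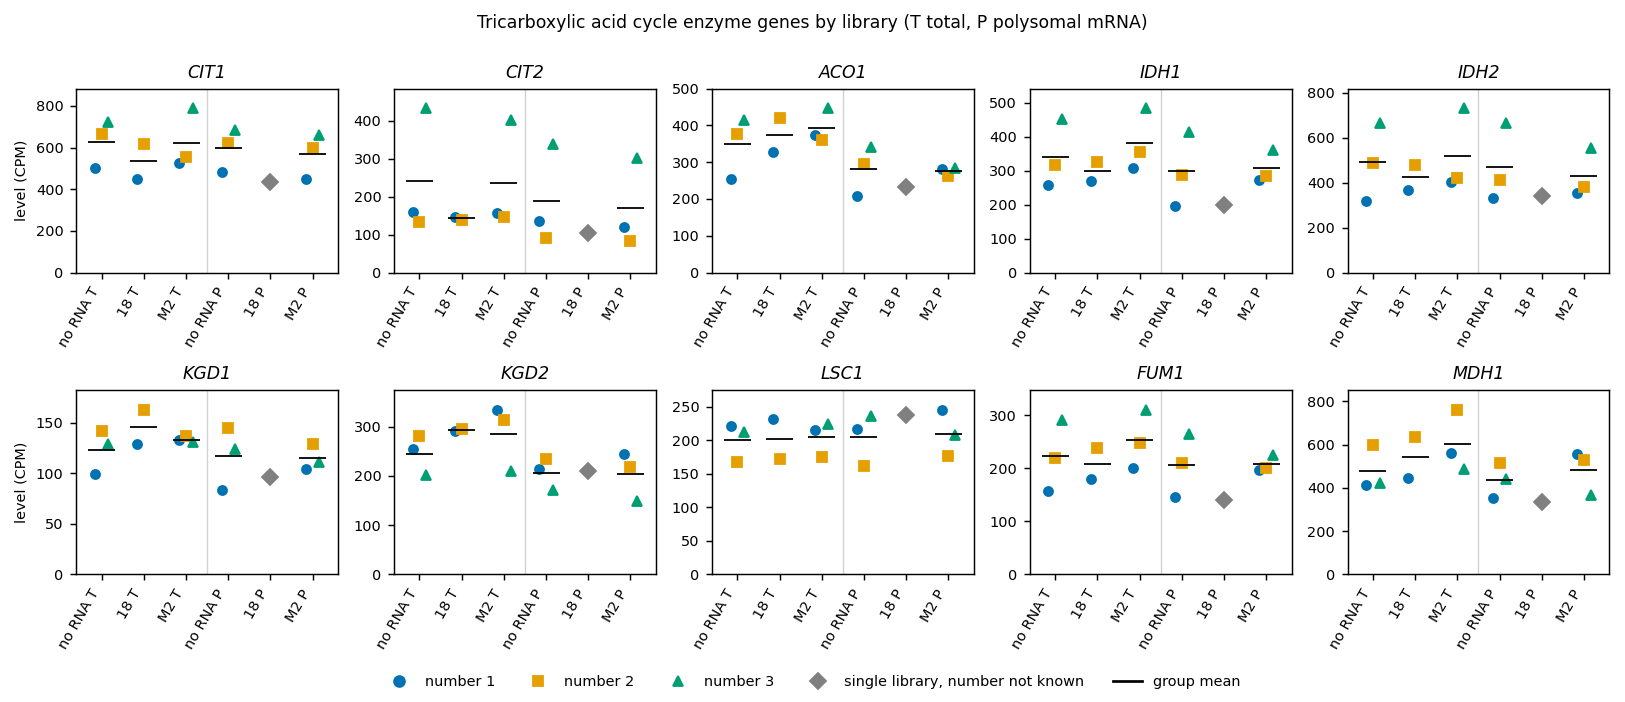
Level in CPM (vertical axis, from 0) of each gene in every library, by group (T total, P polysomal mRNA; 18, rancRNA_18; M2, rancRNA_18-M2), with symbols for the replicate number and a bar for the group mean. The CIT2 libraries with number 3 lie at 303 to 433 CPM and the other 11 at 84.2 to 159.8, while LSC1 stays between 162 and 245.

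Polysomal against total mRNA asks which messages were carried by ribosomes in proportion to their abundance. With no RNA and with rancRNA_18-M2, 9 of the 10 cycle genes lay below 0 in polysomal against total mRNA and only LSC1 lay above it, at a log2 fold change of 0.03 in each. Of all tested genes, 46.9% with no RNA and 49.4% with rancRNA_18-M2 lay above 0 in the fit without the replicate number. CIT2, KGD2 and ACO1 fell in polysomes with rancRNA_18-M2 once the replicate number was in the fit, and CIT2 fell with no RNA too. Without the number, edgeR's quasi-likelihood test and DESeq2 called 0 of 10 genes in either condition. In each tool 0 genes with no RNA and 1 with rancRNA_18-M2 had an unadjusted p under 0.05. Of the 6106 tested genes edgeR called 0.197% with no RNA, all lower, and 0.377% with rancRNA_18-M2, 0.0819% higher and 0.295% lower.

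CIT2 measured 159.8, 132 and 433 CPM in the total libraries 1, 2 and 3 with no RNA, and 135, 90.9 and 339 CPM in the polysomal libraries of the same numbers. With rancRNA_18-M2 it measured 158, 146 and 402 CPM in total and 121, 84.2 and 303 CPM in polysomal mRNA. The groups overlapped, but within each number the polysomal library was the lower. With the replicate block the log2 fold change was -0.38 (SE 0.11, adjusted p = 0.02, n = 3 against 3) with no RNA and -0.53 (SE 0.11, adjusted p = 0.0012, n = 3 against 3) with rancRNA_18-M2, by edgeR's quasi-likelihood test. Without the block the same differences were -0.36 (SE 0.60) and -0.47 (SE 0.60). The call with no RNA was lost when total library 2, total library 3 or polysomal library 2 was left out, with values of -0.37, -0.36 and -0.28.

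KGD2 measured 254, 281 and 201 CPM in total and 215, 235 and 171 CPM in polysomal mRNA with no RNA. With rancRNA_18-M2 it measured 334, 313 and 211 CPM in total and 245, 219 and 149.6 CPM in polysomal mRNA. Here number 3 was the lowest library of each group, the opposite of CIT2. The blocked log2 fold change was -0.49 (SE 0.10, adjusted p = 0.0014 by edgeR) with rancRNA_18-M2 and -0.25 (SE 0.10, adjusted p = 0.095 by edgeR) with no RNA.

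ACO1 measured 253, 378 and 414 CPM in total and 209, 296 and 339.9 CPM in polysomal mRNA with no RNA. With rancRNA_18-M2 it measured 374, 360.5 and 446 CPM in total and 282, 262 and 284 CPM in polysomal mRNA, so that those groups did not overlap. Its blocked log2 fold change was -0.50 (SE 0.13, adjusted p = 0.0077 by edgeR) with rancRNA_18-M2 and -0.31 (SE 0.13, adjusted p = 0.11 by edgeR) with no RNA. The call with rancRNA_18-M2 was lost without total library 1 (-0.40), polysomal library 2 (-0.44) or polysomal library 3 (-0.40).

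In all, the blocked fit called 0 of 10 genes higher and 1 lower with no RNA, where 21.8% of all tested genes were called, 12.3% higher and 9.48% lower. With rancRNA_18-M2 it called 0 higher and 3 lower, where 31.8% were called, 16.8% higher and 15.0% lower. The median log2 fold change of the 10 genes was -0.11 with no RNA and -0.27 with rancRNA_18-M2, beside medians of -0.03 and -0.01 over all tested genes. Leaving out polysomal library 1 with rancRNA_18-M2 raised the count from 3 to 7, with IDH1 at -0.42, FUM1 at -0.43, MDH1 at -0.53 and IDH2 at -0.35 then past the threshold. The share of all tested genes called in that fit is not given here, so the 7 is not read as particular to the 10 genes. CIT2 and KGD2 were called in 6 of 6 such fits for that condition.

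Averaged over no RNA and rancRNA_18-M2, a comparison added after seeing the data, 4 genes were lower in polysomes and 0 higher, where 42.9% of all tested genes were called, 21.0% higher and 22.0% lower. CIT2 stood at -0.45 (SE 0.08, adjusted p = 0.00014), ACO1 at -0.41 (SE 0.09, adjusted p = 0.0019), KGD2 at -0.37 (SE 0.07, adjusted p = 0.00044) and IDH1 at -0.25 (SE 0.08, adjusted p = 0.016), by edgeR. The remaining values were -0.21 (SE 0.10) for MDH1, -0.18 (SE 0.08) for FUM1, -0.16 (SE 0.08) for KGD1, -0.15 (SE 0.08) for IDH2, -0.10 (SE 0.08) for CIT1 and 0.03 (SE 0.07) for LSC1. The subunit genes IDH1 and IDH2 differed by less than the sum of their SEs, and the difference between CIT1 and CIT2 was not tested. Counted by pairs of libraries with the same number and RNA, CIT2, ACO1, IDH1, KGD2 and FUM1 were lower in the polysomal library in 6 of 6 pairs. CIT1, KGD1 and MDH1 were lower in 5, IDH2 in 4 and LSC1 in 3. Of all tested genes, 20.8% were lower in 6 of 6 pairs.

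**Figure D2:**
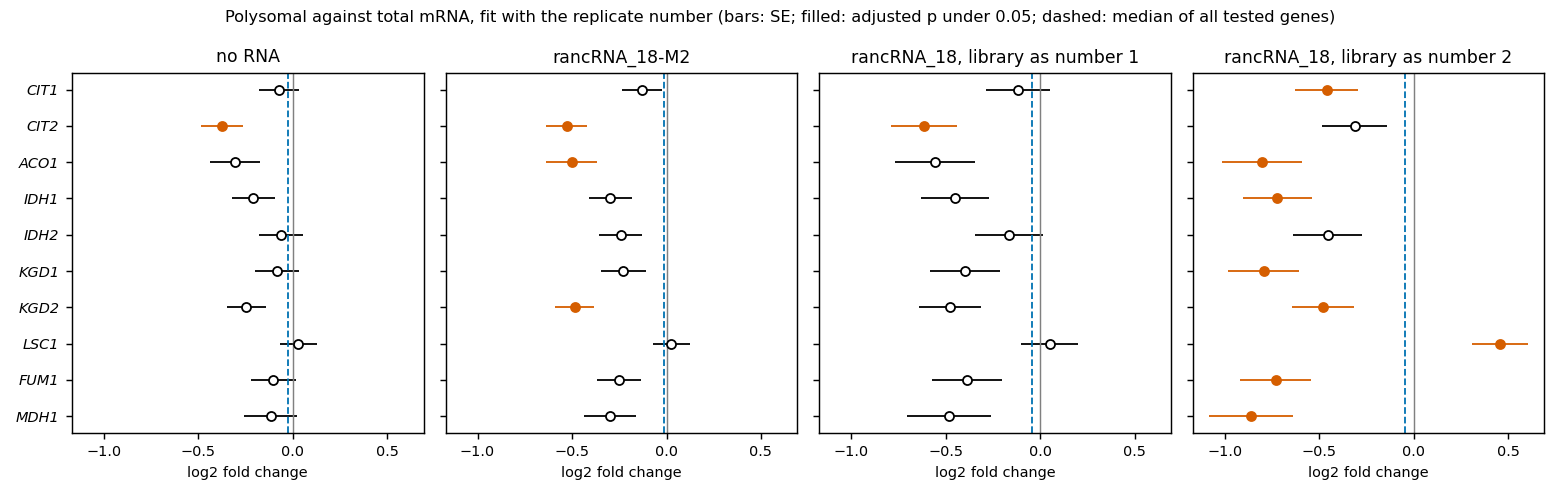
Log2 fold change of polysomal against total mRNA for each gene (horizontal axis), with SE bars, from the fit with the replicate number; filled points have an adjusted p under 0.05, and the dashed line is the median of all tested genes. CIT2, ACO1 and KGD2 are filled at -0.53, -0.50 and -0.49 with rancRNA_18-M2, and the rancRNA_18 panels differ by the number given to its 1 polysomal library.

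The genes were also set against a smooth trend of the polysomal-to-total value on coding length over 5738 genes. In the blocked fit with no RNA the trend was -0.005 at 990 bases, -0.09 at 1467 and -0.07 at 3045. At the lengths of the 10 genes, 990 bases for LSC1 to 3045 for KGD1, the trend of the blocked fits with no RNA and with rancRNA_18-M2 lay between 0 and -0.12. Relative to the trend CIT2, at 1383 bases, stood at -0.29 with no RNA and at -0.42 with rancRNA_18-M2. KGD2 was at -0.37 and ACO1 at -0.39 relative to the trend with rancRNA_18-M2. CIT1, 1440 bases long, was at 0.02 and -0.01, and LSC1 at 0.03 and 0.03. Paralogs of nearly equal length, CIT1 and CIT2, therefore stood apart on this scale, although the difference between them was not tested.

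**Figure D3:**
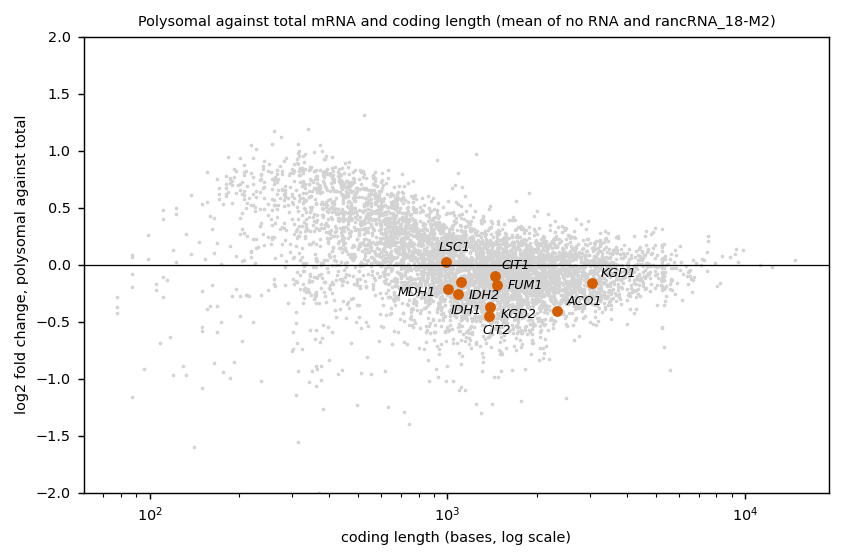
Log2 fold change of polysomal against total mRNA, averaged over no RNA and rancRNA_18-M2 (vertical axis), against coding length in bases (log axis) for 5738 genes in grey, with the cycle genes in colour; 6 genes lie beyond the axis. CIT2, KGD2 and ACO1 lie at -0.45, -0.37 and -0.41, and LSC1 at 0.03.

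With rancRNA_18 the comparison rests on 2 total libraries and 1 polysomal library, which is assumed to vary as the libraries of the other groups do. Without the block edgeR and DESeq2 called 0 of 10 genes, with 0 and 1 of the 10 at an unadjusted p under 0.05, and 0 and 31 of all genes were called. Which replicate number the polysomal library carries decides the blocked result. As number 1, CIT2 was lower at -0.62 (SE 0.18, adjusted p = 0.028) and the other 9 genes ran from -0.56 (ACO1) to 0.05 (LSC1) without a call, where 12.3% of all tested genes were called, 8.32% higher and 3.93% lower. The CIT2 call was lost when either total library was left out, at -0.79 without library 1 and -0.50 without library 2. As number 2, 7 genes were lower and LSC1 was higher, where 29.8% of all tested genes were called, 16.2% higher and 13.6% lower. MDH1 was then at -0.86 (SE 0.22, adjusted p = 0.0075), ACO1 at -0.80 (SE 0.21, adjusted p = 0.0089), KGD1 at -0.79 (SE 0.19, adjusted p = 0.0041) and LSC1 at 0.46 (SE 0.15, adjusted p = 0.027), by edgeR. CIT2, at -0.31 (SE 0.17), was not called in that version. Moving the library from number 1 to number 2 shifted MDH1 from -0.48 to -0.86 and KGD1 from -0.40 to -0.79. LSC1 shifted from 0.05 to 0.46 and CIT2 from -0.62 to -0.31. Each shift was close to the gene's own difference between numbers 2 and 1, given below, with the sign reversed. The design fixes this, because the group holds 1 polysomal library. The blocked values, as number 1 and as number 2 alike, therefore depend on the number assumed for 1 library. Leaving out total library 1 or 2 lowered the 8 calls to 5 or 2.

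The polysomal library of rancRNA_18 can be set beside the numbers by its own levels. For LSC1 it had 238 CPM, within the 215 to 245 CPM of the other libraries with number 1 and above the 162 to 176 CPM of those with number 2. For FUM1 it had 140.3 CPM, below the 145 to 201 CPM of number 1 and the 201 to 247 CPM of number 2. For IDH1 it had 198 CPM, inside the 196 to 307 CPM of number 1 and below the 284 to 355 CPM of number 2. For CIT2 it had 104 CPM, below the 121 to 159.8 CPM of number 1 and inside the 84.2 to 146 CPM of number 2. Over the 10 genes its level lay inside the range of number 1 alone for 5, of number 2 alone for 1 (CIT2) and of neither for 4. These ranges hold total and polysomal libraries of all RNAs, and no number was assigned to the library from them.

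Whether rancRNA_18 or rancRNA_18-M2 altered the cycle genes was asked in each fraction. In total mRNA 0 of 10 genes were called for rancRNA_18 against no RNA, for rancRNA_18-M2 against no RNA and for rancRNA_18 against rancRNA_18-M2, by edgeR with and without the block and by DESeq2, and 0% of all tested genes were called. At an unadjusted p under 0.05 there was 1 member, in rancRNA_18-M2 against no RNA with the block, and 0 without it in each tool. DESeq2 with the block had 2. That member was MDH1, at 0.33 (SE 0.14, adjusted p = 0.64 by edgeR), with 561, 759 and 485 CPM against 411, 599 and 423 CPM, higher in 3 of 3 numbers though the groups overlapped. With the block, 9 of 10 genes lay above 0 in that comparison and the median was 0.15, beside a median of -0.003 over all tested genes. For rancRNA_18 against no RNA, 8 of 10 lay above 0 with a median of 0.08, whereas without the block 5 of 10 did, with a median of -0.04. Both comparisons share the no RNA libraries.

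For CIT2 in total mRNA the fits with and without the number gave unlike values. It had 146 and 139 CPM in the total libraries with rancRNA_18, which has no number 3, and 159.8, 132 and 433 CPM with no RNA. The unblocked log2 fold change was -0.76 (SE 0.69), and the blocked one -0.03 (SE 0.13), with an adjusted p of 0.94 by edgeR. For rancRNA_18-M2 against no RNA, where both groups hold 3 numbers, the values were -0.04 (SE 0.60) and 0.01 (SE 0.11).

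In polysomal mRNA rancRNA_18-M2 against no RNA gave 0 of 10 calls, with and without the block and in DESeq2, and 0 genes at an unadjusted p under 0.05, with blocked values from -0.15 (CIT2) to 0.15 (MDH1). Of all tested genes, 0% were called in that comparison by edgeR without the block. Polysomal MDH1 measured 558, 528 and 364 CPM with rancRNA_18-M2 and 354, 513 and 439.5 CPM with no RNA, higher in 2 of 3 numbers. For rancRNA_18 against no RNA and against rancRNA_18-M2, 0 of 10 genes and 0% of all tested genes were called without the block or with the library as number 1, and 0 of 10 had an unadjusted p under 0.05 by edgeR in either fit. With the library as number 2, LSC1 was higher than with no RNA, at 0.49 (SE 0.14, adjusted p = 0.038 by edgeR), where 8.61% of all tested genes were called and 4.81% were called higher. Against rancRNA_18-M2, LSC1 was then higher at 0.46 (adjusted p = 0.038) and MDH1, FUM1 and IDH1 lower at -0.81, -0.59 and -0.56 (adjusted p = 0.018, 0.038 and 0.039 by edgeR), where 14.2% were called, 7.45% higher and 6.76% lower. With 1 library left out these counts of 1 and 4 ran from 0 to 5 and from 1 to 3. LSC1 measured 217, 162 and 235 CPM in polysomal mRNA with no RNA and 245, 176 and 207 CPM with rancRNA_18-M2, so its 238 CPM with rancRNA_18 lay inside the range of the latter and 0.22 (SE 0.29) above the former without the block. The calls with the library as number 2 depend on the number assumed for that library.

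The ratio of polysomal to total mRNA was tested as an interaction between fraction and RNA, and it gave 0 of 10 calls in each of the 3 comparisons of RNAs, with and without the block and in DESeq2. Without the block edgeR called 0% of all tested genes in each of the 3. An unadjusted p under 0.05 was reached by 0 of 10 without the block or with the rancRNA_18 library as number 1, and with it as number 2 by 5 for rancRNA_18 against no RNA and 4 against rancRNA_18-M2. The share of all tested genes under that unadjusted p is not given here, so these counts are not read as particular to the 10 genes. For rancRNA_18-M2 against no RNA the blocked differences were -0.15 (SE 0.15) for CIT2, -0.24 (SE 0.15) for KGD2 and -0.19 (SE 0.19) for ACO1. CIT2, KGD2 and ACO1 were therefore not shown to differ in this ratio between those conditions. The lowest adjusted p, 0.093, belonged to KGD1 at -0.71 (SE 0.22) for rancRNA_18 against no RNA with the library as number 2, where 2.77% of all tested genes were called.

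The largest differences among the 10 genes, up to 1.71 on the log2 scale for CIT2, lay between replicate numbers. This comparison was added after seeing the data, on the 14 libraries without the duplicated 1, with the group in the fit. What a number stands for is not given in the labels. Each number is 1 set of libraries that deviate together, and the libraries of a set are not independent replicates of it. The p-values between numbers therefore do not measure the spread between such sets. Against number 1, number 3 was higher in 7 of 10 genes and lower in 1, where 59.7% of all tested genes were called, 31.8% higher and 27.9% lower. The median of the 10 genes was 0.51, beside 0.04 over all tested genes. CIT2 led at a log2 fold change of 1.41 (SE 0.09, adjusted p = 3e-09 by edgeR), with 303 to 433 CPM in the 4 libraries with number 3 and 121 to 159.8 CPM in the 5 with number 1, and no overlap. IDH2 followed at 0.92 (SE 0.10), with 555 to 730.1 CPM against 319.6 to 402 CPM, and IDH1 at 0.75 (SE 0.10), with 362 to 484 CPM against 196 to 307 CPM. FUM1 was at 0.67, CIT1 at 0.57, ACO1 at 0.44 and KGD1 at 0.26. KGD2 was lower at -0.49 (SE 0.09, adjusted p = 0.00011 by edgeR), with 149.6 to 211 CPM against 215 to 334 CPM. LSC1 at -0.02 (SE 0.08) and MDH1 at -0.09 (SE 0.12) were not called.

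Number 2 differed in another way. CIT2 at -0.31 (SE 0.09) and LSC1 at -0.41 (SE 0.08) fell below number 1, while KGD1 at 0.40, MDH1 at 0.38, CIT1 and FUM1 at 0.34 each, IDH2 at 0.29 and IDH1 at 0.27 rose, where 39.7% of all tested genes were called, 19.5% higher and 20.3% lower. The IDH1 and IDH2 calls held in 9 and 10 of 14 fits that left out 1 library each, and the other 6 in 14. LSC1 had 162 to 176 CPM in the 5 libraries with number 2 and 207 to 245 CPM in the other 9 with a known number, with no overlap. Between numbers 3 and 2, CIT2 was at 1.71 (SE 0.09), the largest difference among the 10 genes in these 3 comparisons. IDH2 at 0.63, IDH1 at 0.48, LSC1 at 0.39, FUM1 at 0.33 and CIT1 at 0.23 were higher too, and KGD2 at -0.49 and MDH1 at -0.47 were lower, where 53.9% of all tested genes were called, 28.9% higher and 25.1% lower. CIT1 was called in 5 of the 14 fits that left out 1 library each, with values down to 0.15, and FUM1 in 13. KGD1 and KGD2, of the alpha-ketoglutarate dehydrogenase complex, moved apart between numbers 3 and 1: KGD1 was higher in number 3, and KGD2 lower. Between numbers 3 and 2 both lay below 0. There KGD1 ran from -0.20 to -0.07 in the fits that left out 1 library each, and was called in 0 of 14. Between numbers 3 and 1 the KGD1 call was lost in 4 of 14 fits that left out 1 library each, with values down to 0.17, while CIT2, IDH1, IDH2, FUM1, CIT1, ACO1 and KGD2 were called in 14 of 14. Number 3 holds no rancRNA_18 library, whereas the ranges of numbers 1 and 2 each include a rancRNA_18 total library.

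**Figure D4:**
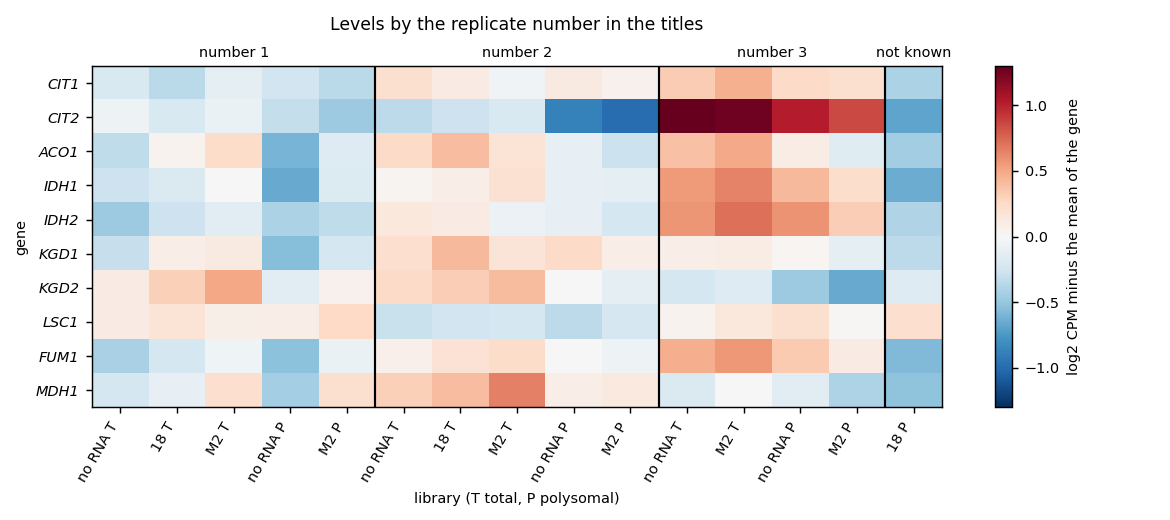
Log2 CPM minus the gene's own mean (colour) for each gene (rows) in each library (columns), ordered by the replicate number in the titles, with the rancRNA_18 polysomal library, whose number is not known, at the right. CIT2 is high in the 4 libraries with number 3, at 303 to 433 CPM, where KGD2 is low at 149.6 to 211 CPM.

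The genes that work beside these 10 were followed in 5 lists. Without the block 0 of their 42 genes were called in polysomal against total mRNA with no RNA, rancRNA_18-M2 or rancRNA_18. The blocked counts below stand beside 12.3% of all tested genes called higher and 9.48% lower with no RNA, and 16.8% and 15.0% with rancRNA_18-M2. With the block, other subunits and paralogs of cycle enzymes gave 3 higher and 1 lower of 9 with no RNA and 2 and 1 with rancRNA_18-M2. KGD4, a small subunit of the alpha-ketoglutarate dehydrogenase complex, was higher in polysomes, at 0.74 (SE 0.10, adjusted p = 0.0002) and 0.92 (SE 0.10, adjusted p = 1.5e-05). LPD1, the dihydrolipoamide dehydrogenase of the same complex, was lower, at -0.35 (adjusted p = 0.044) and -0.54 (adjusted p = 0.0021), all by edgeR. The succinate dehydrogenase membrane subunit SDH4 was higher at 0.47 and 0.41, and SDH3 at 0.46 with no RNA. Thus the components of 1 complex lay on both sides of 0, with KGD4 above and KGD2 and LPD1 below. KGD2 was called only with rancRNA_18-M2, and KGD1, at -0.09 with no RNA and -0.23 with rancRNA_18-M2, in neither. The genes of the 5 lists were not set against the trend on coding length, so how far their values go with length was not tested.

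Of 7 cytosolic and peroxisomal relatives and glyoxylate cycle genes, 0 were higher and 2 lower with no RNA, and 0 and 4 with rancRNA_18-M2, where 21.8% and 31.8% of all tested genes were called in either direction. ICL1, isocitrate lyase, was at -0.44 (adjusted p = 0.01) and -0.49 (adjusted p = 0.0032), and MDH2, the cytosolic malate dehydrogenase, at -0.39 (adjusted p = 0.0074) with rancRNA_18-M2, by edgeR. Among 9 genes for the entry of carbon, 3 were higher and 0 lower with no RNA, and 2 and 2 with rancRNA_18-M2. The mitochondrial pyruvate carrier genes MPC2, at 0.63 and 0.72, and MPC1, at 0.36 and 0.58, were higher in both, with the pyruvate dehydrogenase gene PDB1 at 0.28 with no RNA, and the pyruvate carboxylase genes PYC2, at -0.33, and PYC1, at -0.35, the lower ones with rancRNA_18-M2. Of 7 carriers of cycle intermediates, DIC1 was higher at 0.35 and 0.48 and OAC1 lower at -0.33 and -0.29, with SFC1 at -0.56 in rancRNA_18-M2. Of 10 retrograde and HAP regulators and targets, DLD3, a retrograde target, was lower at -0.33 and -0.41, and the factor gene RTG3 was higher at 0.35 with no RNA.

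The 5 genes whose profile over the 15 libraries lay nearest to the mean profile of the 10 were YAT2, XKS1, NET1, SDS23 and KAP95, among 4394 genes with a mean of at least 20 CPM. Their root mean square distances ran from 0.071 to 0.090 on the centred log2 scale. The 10 genes themselves ranged from rank 62 for FUM1, at 0.13, to rank 3825 for CIT2, at 0.58, so CIT2 lay farthest from the mean profile of its own group. That mean profile ran from -0.40 in the polysomal library with rancRNA_18 to 0.42 in total library 3 with rancRNA_18-M2.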

How the data were processed

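Each deposited file lists raw read counts for the genes of 1 sample, and the authors applied no normalization to them. Per the submitters' processing notes the tools were FastQC, HISAT2 and featureCounts, and per the labels' protocols the library kit was stranded. Tool versions, build, annotation and whether counting used strand were not given in the sources used here. Each file has 1 line without a gene name, which was left out. Of the gene IDs, 6048 matched locus tags of RefSeq R64 and 1078 did not; R64 served for names, coding length, upstream sequence and overlaps.

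Counts were tested in R 4.3.3 with edgeR 4.0.16 (robust quasi-likelihood F-test, TMM scaling, filterByExpr, 1 coefficient per group over all 6 groups), with Benjamini-Hochberg adjustment over 6106 genes in each of 12 contrasts and a threshold of 0.05. There were 9 residual degrees of freedom, and 7 with the replicate block. SE is the log2 fold change divided by the square root of F. CPM used TMM-scaled library sizes, and log2 CPM a prior count of 2. DESeq2 1.42.0, its size factors in edgeR, no filter, the block and leaving out each library were alternatives. The script was tested on simulated data.

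The 15 distinct libraries held 16691019 to 31148081 reads. The replicate numbers come from the sample titles, which do not say what they mark. Deviations from the group means correlated at 0.429 to 0.794 in the 26 pairs of libraries with the same number and at -0.587 to 0.03 in the 52 pairs with different numbers. These ranges are not independent, because deviations within a group sum to 0. From the pairs with the same number, the numbers were taken to pair the libraries. The number of the duplicated library is not known, and it was taken as 1 and as 2.

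The 10 genes, the gene lists and the tests were chosen with earlier results of these data known. All 10 genes are named. For the other lists the plan was to name genes past the threshold, at most 4 per list and comparison, smallest p first. The naming departs from that plan: some called genes are not named, and in places more than 4 are. The 5 genes of most like profile had the smallest root mean square distance. The comparisons of replicate numbers, the average over no RNA and rancRNA_18-M2, the counts over pairs and the window of 500 bases were added after seeing the data. The planned protein alignments of CIT1 with CIT2 and of IDH1 with IDH2 were not analysed here.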

Additional observations from a re-analysis of the deposited data

How the results depend on the processing

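No value of the 10 genes that passed the threshold changed direction under an alternative. Without the replicate block, another scaling, no filter, DESeq2 and leaving out each library kept the count of called genes at 0 of 10 in each of the 12 contrasts. With the block, the count in polysomal against total mRNA became 1 with no RNA and 3 with rancRNA_18-M2, with TMM or DESeq2-style size factors in edgeR and in DESeq2. Leaving out 1 library each in the blocked fit gave 0 to 1 and 2 to 7. The shares of all tested genes called in such fits are not given here. For rancRNA_18 the blocked count with the duplicated library as number 1 was 1 in edgeR under both scalings and 2 in DESeq2, and 0 when either total library was left out. As number 2 it was 8, 7 and 9 with TMM, with size factors and in DESeq2, and 2 to 5 with a total library left out. Also as number 2, rancRNA_18 against no RNA in polysomal mRNA had 1, 1 and 4 calls (0 to 5 leaving out 1 library), rancRNA_18 against rancRNA_18-M2 had 4, 4 and 5 (1 to 3), and the ratio for rancRNA_18 against no RNA had 0, and 0 to 1 with 1 library left out.

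Over all genes, polysomal against total mRNA called 0 higher and 12 lower with no RNA in edgeR, 44 and 71 in DESeq2, and 753 and 579 with the block. With rancRNA_18-M2 the counts were 5 and 18, 236 and 172, and 1023 and 916, and with DESeq2-style size factors and the block 1104 and 805. The cause of these shifts was not tested. Depth limits none of the 10 genes, the lowest count being 1325 reads; the number of libraries, 1 polysomal library with rancRNA_18 above all, limits the precision.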

Other observations

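Outside the 10 cycle genes, 3 of the 4 succinate dehydrogenase genes and several retrograde and carrier genes also differed by replicate number, in the same comparison of numbers 3 and 1, which was added after seeing the data. The succinate dehydrogenase genes SDH4 at a log2 fold change of -0.98 (SE 0.10, adjusted p = 2.7e-07), SDH3 at -0.90 (SE 0.10, adjusted p = 9.1e-07) and SDH2 at -0.89 (SE 0.11, adjusted p = 3.6e-06) were lower in number 3, by edgeR's quasi-likelihood test, as was KGD4 at -0.69 (SE 0.09). SDH1 was not called, at -0.26 (SE 0.13, adjusted p = 0.088 by edgeR). SDH4 measured 336, 363 and 175 CPM in the total libraries 1, 2 and 3 with no RNA and 404, 452 and 192 CPM with rancRNA_18-M2. Library 3 was the lowest of each.

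The retrograde target DLD3 was higher in number 3 at 1.03 (SE 0.08, adjusted p = 3.8e-08 by edgeR), with 157, 151 and 316 CPM in total mRNA with no RNA and 149, 149 and 337 CPM with rancRNA_18-M2. The gene of the mitochondrial dicarboxylate carrier, DIC1, was higher at 1.47 (SE 0.10, adjusted p = 3.1e-09 by edgeR), with 79.4, 67.1 and 191 CPM in total mRNA with no RNA. Of the 7 carriers 2 were higher, with OAC1 at 0.43, and 3 lower, with CTP1 at -0.30, ODC1 at -0.47 and ODC2 at -0.35. Of the 10 retrograde and HAP regulators and targets, 6 were higher and 0 lower, HAP1 at 0.74 and RTG2 at 0.36 among them. Of the 9 other subunits and paralogs, 2 were higher, with the citrate synthase gene CIT3 at 0.86, and 4 lower. All of these stand beside the 59.7% of tested genes that differed between numbers 3 and 1, and what the number marks was not tested. Here too the p-values do not measure the spread between the sets of libraries that share a number.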
